A study of Nannochloropsis oceanica with 6 samples.

Results

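Heat-shock proteins and chaperones were described in Nannochloropsis oceanica IMET1, a single-celled marine alga that stores oil, after nitrogen deprivation (ND) and nitrogen repletion (NR). The members were the genes whose deposited Swiss-Prot annotation contained "heat shock", "DnaJ", "chaperonin", "T-complex protein 1", "chaperone protein" or "ClpB" and not "transcription factor". They numbered 85 of 10481 genes and fell into small heat-shock proteins (5), HSP90 (2), HSP70 (11), HSP100 (5), J-domain proteins (38), chaperonins (15) and a remainder of 9. Log-phase cells of strain IMET1 grown in modified f/2 medium were washed and moved into nitrogen-free f/2 medium for ND or into complete f/2 medium for NR, under continuous light. Each condition had 3 replicates sampled at 72 h, taken here as separate cultures, and the labels name no transgene or mutation. The annotation does not make every member a chaperone. The remainder held 4 heat shock factors, which are regulators of transcription, and Tcp11l2 (NO10G02130), a T-complex protein 11 gene caught because its name begins like that of the chaperonin subunits. The names of some gene models with a matching entry also listed a protein that is no chaperone, such as an enoyl-CoA reductase. DNAJC6 (NO12G03050) was kept with the J-domain proteins, as its gene symbol says, although its protein name is putative tyrosine-protein phosphatase auxilin. Most members carried a name alone and no word for a compartment, so plastid or mitochondrial sites are given only where the annotation states them.

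Chaperones bind proteins that are unfolded or newly made and keep them from clumping. Small heat-shock proteins hold unfolding proteins without using ATP. HSP70 proteins bind and release short stretches in a cycle that J-domain proteins start and exchange factors end, and HSP100 proteins of the ClpB type pull clumped proteins apart together with HSP70. HSP90 acts late on clients such as kinases, and chaperonins enclose proteins in a ring. Heat shock factors switch on many of these genes in stressed eukaryotic cells.

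Libraries held 3972986 to 5693513 estimated counts, and every member had at least 13 counts in each library and was tested. TPM, the transcript abundance scaled for gene length and summing to a fixed total per library, is used for levels. Changes are given on the log2 scale as ND relative to NR, with the SE of edgeR's quasi-likelihood fit and p-values adjusted over all 9329 genes tested. They are given under the trimmed mean scaling, under which the median of all genes was 0.02, and with library totals alone, under which it was 0.34. A limma fit on log2(TPM + 1) had a median of 0.39 and is used as the third view. A member is called higher or lower under all 3 views only when its adjusted p was under 0.05 in the same direction in each. Gene models whose estimated counts were not whole divided reads with another model, as did 28 of the 85 members, and they are marked "shared reads". RNA came from whole cultures, so fewer cells carrying a transcript cannot be told apart from less of that transcript per cell. Nothing in the labels says that replicate numbers mark a shared batch.

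Chaperone transcripts as a whole held nearly the same part of the library in both conditions, while individual families moved apart. Members summed to 5.14%, 5.07% and 5.05% of all TPM in the ND libraries, against 4.87%, 5.00% and 5.15% in the NR libraries, and these ranges overlapped. Small HSP transcripts were the largest portion, at 2.11%, 2.07% and 2.08% in ND and 1.93%, 1.93% and 2.22% in NR, where NR culture 3 alone lay above all ND cultures. HSP70 made up 0.686%, 0.690% and 0.692% in ND, above the 0.571%, 0.617% and 0.565% of NR. That order rested on the most abundant gene, HSP70 (NO23G00640), without which the other 10 genes summed to 0.225%, 0.223% and 0.221% in ND, below the 0.287%, 0.282% and 0.252% of NR. In contrast, HSP100 made up 0.311%, 0.306% and 0.302% in ND, below the 0.500%, 0.507% and 0.478% of NR. The HSP90 sum was 0.802% ± 0.0213 in ND and 0.739% ± 0.0125 in NR, and the J-domain sum was 0.410% ± 0.00388 in ND and 0.388% ± 0.0158 in NR (SD, n = 3 each). HSP90 too turned without its most abundant gene, to 0.0991% ± 0.00280 in ND and 0.142% ± 0.00214 in NR (SD, n = 3 each). Chaperonin genes summed to 0.436% ± 0.00659 in ND and 0.448% ± 0.00412 in NR (SD, n = 3 each), but the 14 genes other than groL1 (NO11G02260) summed to 0.341% ± 0.00602 in ND and 0.313% ± 0.00371 in NR. Restricted to the genes with whole counts, 12 chaperonins summed to 0.307% ± 0.00584 in ND and 0.264% ± 0.0011 in NR and 2 small HSP genes to 0.222% ± 0.00656 in ND and 0.266% ± 0.0177 in NR (SD, n = 3 each), so the order of means turned in both families. These sums were not tested, because they add up chosen genes of very different abundance.

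**Figure D1:**
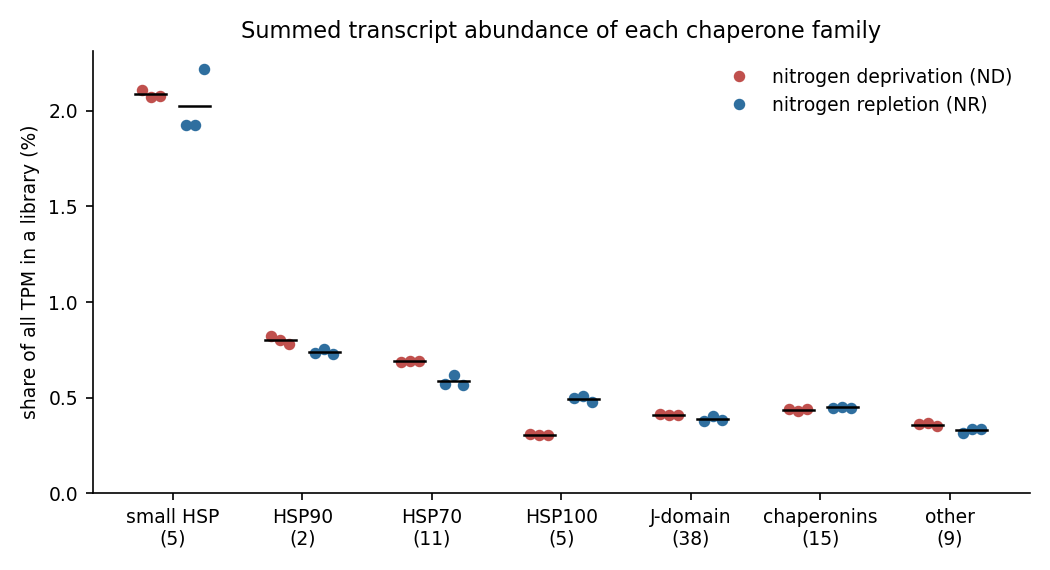
Share of all TPM (%, linear axis) held by each chaperone family in each library, with the number of genes in brackets, points for the 3 ND and 3 NR cultures and bars for their means. HSP70 lay higher and HSP100 lower in all 3 ND cultures (0.689% and 0.307% on average) than in all 3 NR cultures (0.584% and 0.495%), whereas small HSP overlapped; without its most abundant gene HSP70 lay lower in ND (0.223%) than in NR (0.274%).

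Under the trimmed mean scaling 20 members were higher and 45 lower in ND and 20 did not pass, beside backgrounds of 35.7% of all tested genes higher and 35.5% lower (71.2% in either direction). The members' shares were 23.5% higher and 52.9% lower, with a median change of -0.14 against 0.02 for all genes. With library totals alone the counts turned round to 44 higher and 22 lower (background 54.4% and 23%, or 77.4% in either direction), and the median was 0.18 against 0.34 for all genes. The limma fit on TPM called 43 higher and 18 lower (background 54.3% and 19.7%). The balance of rises and falls among chaperones therefore depended on the scaling. Their median lay below that of all genes under each of the 3 views. A change of scaling moves all genes by nearly the same amount, so the views hardly test that order separately. Under all 3 views together 20 members were higher and 17 lower, and the backgrounds were 35.6% and 20.2%. In TPM the libraries of the conditions did not overlap for 46 members that lay higher and 20 that lay lower in ND, beside 57.6% and 21.8% of all genes. All 20 members called higher under the trimmed mean scaling were among them. That adds little, because changes lay higher with library totals and on TPM than under the trimmed mean. Of all genes 35.7% were higher under the trimmed mean and 35.6% under all 3 views, so the added views filtered hardly any rises. Another 7 members were called in opposite directions by the trimmed mean and library totals, beside a background of 0.911%. They included the most abundant HSP90 gene, the mitochondrial CPN10 and the co-chaperone P23-1, all with small changes.

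**Figure D2:**
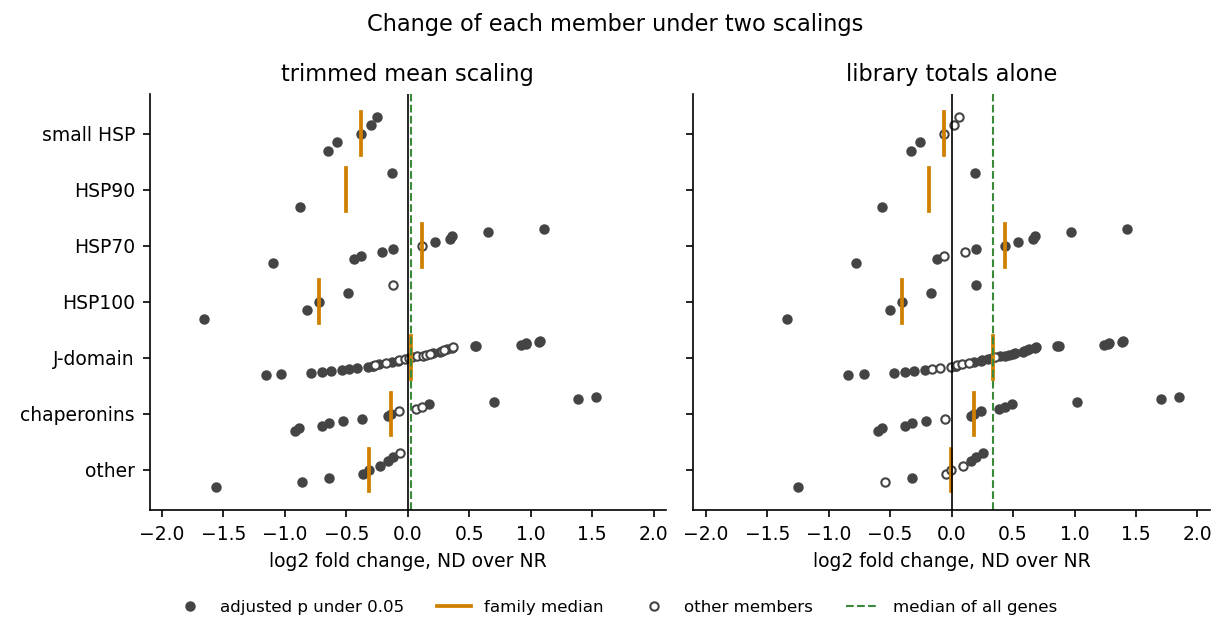
Log2 fold change (ND over NR) of each member by family under the trimmed mean scaling (left) and library totals alone (right); filled points passed an adjusted p of 0.05, orange bars are family medians and the dashed line is the median of all genes. The small HSP and HSP100 medians lay at -0.38 and -0.72 on the left and at -0.07 and -0.40 on the right, left of the dashed line in both panels. A change of scaling moves the members and the dashed line nearly alike.

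Small heat-shock proteins were among the most abundant transcripts of the alga in both conditions. A trio of models with consecutive IDs, HSP23.2 (NO20G02130), HSP23.2 (NO20G02140) and hsp16 (NO20G02150), ranked 6, 3 and 5 of all 10481 genes by mean TPM in ND and 11, 5 and 6 in NR. NO20G02140 had 6768, 6618 and 7091 TPM in ND and 5786, 5897 and 6998 TPM in NR. For NO20G02130 the libraries gave 6006, 5688 and 5632 TPM in ND and 5171, 5087 and 5628 TPM in NR. The third, NO20G02150, had 6142, 6115 and 5882 TPM in ND and 5731, 5733 and 6692 TPM in NR. Of the trio only NO20G02130 had no overlap in TPM, by a narrow gap, and NR culture 3 was the highest NR library for all of them. Each of these models shared reads, so their sum is given as well, though which models exchanged reads is not known. It was 18917, 18422 and 18605 TPM in ND and 16689, 16718 and 19319 TPM in NR. The summed counts changed by -0.32 ± 0.05 under the trimmed mean scaling (adjusted p = 4.45e-06) and by -0.01 with library totals (adjusted p = 0.914). A fall of the trio was thus called under the trimmed mean scaling and lost with library totals.

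The HSP16.9A genes, annotated as class I small heat-shock proteins and read without sharing, were lower in ND under all 3 views. HSP16.9A (NO08G01140) had 2034, 2146 and 2042 TPM in ND and 2420, 2388 and 2688 TPM in NR, with no overlap. Its change was -0.65 ± 0.05 under the trimmed mean scaling (adjusted p = 2e-10) and -0.33 with library totals. HSP16.9A (NO18G01280) was much less abundant, at 148, 148 and 136 TPM in ND and 159, 156 and 178 TPM in NR. It changed by -0.58 ± 0.07 (adjusted p = 5.36e-07) and by -0.26 with library totals. All 5 small HSP genes were lower under the trimmed mean scaling, with a median of -0.38, and 2 with library totals, with a median of -0.07. Of all genes 35.5% were lower under the first and 23% under the second. Without NR culture 3 the trimmed mean median was -0.30.

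The HSP100 disaggregases had the lowest median of the families under each of the 3 views, an order that a change of scaling hardly alters. Of any member, clpB1 had the largest change under the trimmed mean scaling. The gene clpB1 (NO16G01260), whose annotated match is a cyanobacterial ClpB, had 990, 963 and 935 TPM in ND and 2348, 2361 and 2338 TPM in NR. Every ND library thus lay far below every NR library. Its level was 3.15 times lower in ND under the trimmed mean scaling (-1.65 ± 0.04, adjusted p = 1.76e-18) and its change was -1.34 with library totals. CLPB1 (NO20G02120), which precedes the small HSP trio in ID order and shares reads, had 1470, 1487 and 1460 TPM in ND and 1917, 1951 and 1788 TPM in NR (-0.72 ± 0.04, adjusted p = 4.92e-12). The second CLPB1 (NO06G02920) had 175, 152 and 155 TPM in ND and 223, 232 and 205 TPM in NR (-0.82 ± 0.06, adjusted p = 2.53e-10). Both CLPB1 genes were also lower with library totals (-0.40 and -0.50) and on TPM. By contrast, clpB (NO29G00690), with 414, 401 and 411 TPM in ND and 460, 469 and 398 TPM in NR, overlapped between conditions in TPM. It was called lower by both edgeR fits (-0.48 ± 0.06 and -0.17) and not by limma on TPM (adjusted p = 0.175). The scarcest, clpB (NO12G03450), had 60.8 ± 2.35 TPM in ND and 51.2 ± 5.36 TPM in NR (SD, n = 3 each). It did not pass under the trimmed mean scaling (-0.12 ± 0.09, adjusted p = 0.237) and was higher with library totals (0.20, adjusted p = 0.0485), so HSP100 genes did not all move one way.

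**Figure D3:**
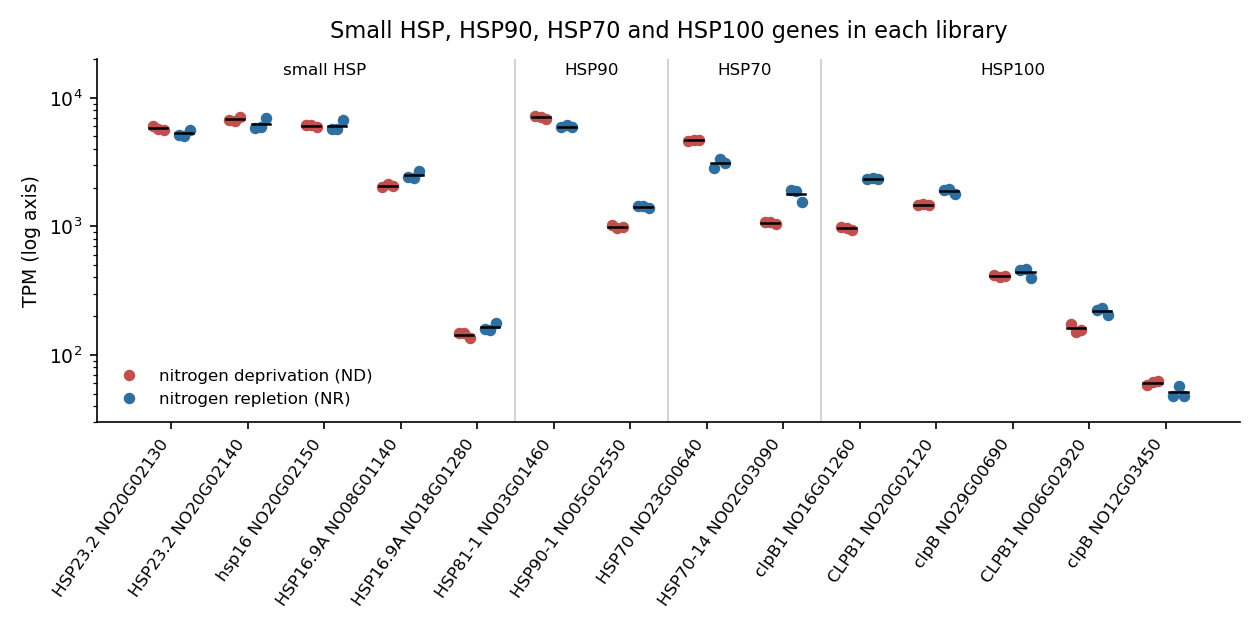
TPM (log axis) in each ND and NR library of the small HSP, HSP90 and HSP100 genes and of the most abundant HSP70 genes; points are cultures and bars are means. The gap is widest for clpB1, at 935 to 990 TPM in ND and 2338 to 2361 TPM in NR, while the small HSP trio overlaps or nearly meets between conditions.

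The HSP70 family divided, with its most abundant gene higher and an HSP110-type gene lower in ND. HSP70 (NO23G00640), named after an oomycete heat shock 70 kDa protein, had 4614, 4664 and 4711 TPM in ND and 2841, 3345 and 3126 TPM in NR. All ND libraries lay above all NR libraries, and the gene ranked 8 among all transcripts in ND and 23 in NR. Its change was 0.22 ± 0.05 under the trimmed mean scaling (adjusted p = 0.00021) and 0.54 with library totals. HSP70-14 (NO02G03090), which in Arabidopsis belongs to the HSP110 group of exchange factors for HSP70, had 1077, 1075 and 1048 TPM in ND and 1907, 1867 and 1538 TPM in NR. It was 2.14 times lower in ND (-1.10 ± 0.06, adjusted p = 2.12e-12), and its change was -0.78 with library totals. The transcript HSP70-17 (NO13G03420, shared reads), whose KEGG entry is the endoplasmic reticulum (ER) chaperone HYOU1, moved the other way. It had 54.2, 59.6 and 51.6 TPM in ND and 17.9, 23.9 and 18.1 TPM in NR, and was 2.15 times higher (1.11 ± 0.09, adjusted p = 5.46e-10).

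Among scarcer HSP70 genes, HSPA6 (NO24G02010) had 32.2, 32.1 and 27.9 TPM in ND and 14.6, 13.4 and 17.3 TPM in NR (0.65 ± 0.14, adjusted p = 0.000443). The bacterial-type dnaK (NO01G03330) had 30.7, 29.9 and 25.2 TPM in ND and 18.9, 15.5 and 16.95 TPM in NR. Its call of 0.36 ± 0.14 (adjusted p = 0.0281) was lost with DESeq2 (adjusted p = 0.124), and when ND culture 1 or 2 or NR culture 2 or 3 was left out (adjusted p = 0.0606 to 0.105). The adjacent dnaK (NO13G01180) and HSP70-6 (NO13G01190), annotated with algal and chloroplast HSP70 proteins, are both marked as sharing reads and were summed. Together they had 159.6, 153.1 and 158.7 TPM in ND and 100.9, 87.2 and 117.8 TPM in NR, a change of 0.30 ± 0.07 (adjusted p = 0.000662). The pair was picked after its values were seen. BIP2 (NO08G00730), an HSP70 of the ER by its Arabidopsis match but with the KEGG entry HSPA1s, had 309, 298 and 288 TPM in ND and 312, 314 and 315 TPM in NR. Its libraries thus nearly met, and its fall under the trimmed mean scaling (-0.44 ± 0.05, adjusted p = 6.34e-08) and with library totals (-0.12) was not called on TPM (adjusted p = 0.16). The KEGG entry HSPA5,BIP belonged to NO08G04130, given after its values were seen. That gene had 30.1 ± 2.55 TPM in ND and 22.6 ± 1.26 TPM in NR (SD, n = 3 each). It was lower under the trimmed mean scaling (-0.21 ± 0.09, adjusted p = 0.039) and not called with library totals (0.11, adjusted p = 0.284). In limma on TPM it was higher (0.40, adjusted p = 0.00784). The deposited effective length of this gene was 83.3% as long in ND as in NR, and its part in the TPM change was not tested. HSP70-16 (NO11G03570, shared reads), with 18.2 ± 0.79 TPM in ND and 18.4 ± 0.97 TPM in NR (SD, n = 3 each), was lower under the trimmed mean scaling (-0.38 ± 0.09, adjusted p = 0.000794) and not called with library totals (-0.06, adjusted p = 0.524). Altogether 5 HSP70 genes were higher and 5 lower under the trimmed mean scaling, and 7 higher and 2 lower with library totals. The backgrounds over all genes were 35.7% higher and 35.5% lower under the first, and 54.4% and 23% under the second. The family median of 0.12 was -0.06 without NR culture 2 and 0.22 without NR culture 3, and 3 genes were lower without ND culture 2.

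The HSP90 genes did not move together. HSP81-1 (NO03G01460) was the second most abundant transcript of all genes in ND and ranked 9 in NR. It had 7201, 7068 and 6808 TPM in ND and 5926, 6101 and 5900 TPM in NR, with no overlap. Its direction turned with the scaling, with -0.13 ± 0.04 under the trimmed mean (adjusted p = 0.0045) and 0.19 with library totals (adjusted p = 2.33e-05). HSP90-1 (NO05G02550, shared reads) had 1020, 965 and 987 TPM in ND and 1426, 1430 and 1391 TPM in NR. It was lower under all 3 views (-0.88 ± 0.04, adjusted p = 1.39e-13, and -0.56 with library totals). The ratio of HSP90-1 to HSP81-1 in TPM, which no scaling between libraries affects, was 0.142, 0.136 and 0.145 in ND and 0.241, 0.234 and 0.236 in NR. Of the HSP90 partners, P23-1 (NO03G00370), a co-chaperone that stabilises HSP90 with its client, had 857, 861 and 892 TPM in ND and 709, 720 and 795 TPM in NR. Like HSP81-1 it changed sign, with -0.16 ± 0.05 under the trimmed mean (adjusted p = 0.01) and 0.16 with library totals (adjusted p = 0.0106). Cdc37 (NO14G02250), which brings kinases to HSP90 and was no member, averaged 215 ± 6.26 TPM in ND and 346 ± 8.94 TPM in NR (SD, n = 3 each), a change of -1.06 ± 0.05 (adjusted p = 3.26e-13; -0.74 with library totals).

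Chaperonins split by type. The cytosolic chaperonin, a ring of 8 kinds of T-complex protein 1 (CCT) subunit that folds actin and tubulin, was higher for 4 subunits and lower for 1 under the trimmed mean scaling, and higher for all 8 with library totals and on TPM. The backgrounds were 35.7% of all genes higher and 35.5% lower under the trimmed mean scaling. They were 54.4% and 23% with library totals, and 54.3% and 19.7% on TPM. The CCT median was 0.14 under the trimmed mean and 0.46 with library totals, against 0.02 and 0.34 for all genes. The largest change among the subunits was that of CCT2 (NO22G01820, subunit beta), with 130, 121 and 128 TPM in ND and 35.4, 36.3 and 32.2 TPM in NR. It was 2.90 times higher in ND (1.53 ± 0.09, adjusted p = 2.31e-12). Subunit eta, cct7 (NO29G01720), had 73.1, 69.2 and 82.2 TPM in ND and 26.1, 21.1 and 17.7 TPM in NR and was 2.61 times higher (1.39 ± 0.17, adjusted p = 5.28e-07). Subunit zeta, CCT6 (NO28G00600), had 157, 174 and 173 TPM in ND and 82.0, 88.4 and 69.6 TPM in NR (0.70 ± 0.08, adjusted p = 1.51e-07). The ND libraries of these 3 subunits lay far above the NR libraries, and lack of overlap in normalised CPM was a condition for naming them. The remaining subunits, described after their values were seen, had smaller changes that depended on the scaling. Epsilon (NO16G01320) changed by 0.17 ± 0.05 under the trimmed mean and 0.49 with library totals, and alpha, CCT1 (NO13G00970), by -0.14 ± 0.06 and 0.18. Under the trimmed mean gamma (NO14G00900, 0.06), delta (Cct4, 0.11) and theta (cct8, -0.07) did not pass the test, whereas with library totals they were higher (0.38, 0.43 and 0.24). Subunits spanned 50.8 to 193 TPM in ND and 21.6 to 133 TPM in NR, so the most abundant was 3.79 times the scarcest in ND and 6.13 times in NR. None of the 8 shared reads, and summed CCT transcripts were 0.0938% ± 0.00192 of all TPM in ND and 0.0558% ± 0.00159 in NR (SD, n = 3 each).

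The 7 chaperonins of bacterial type, of which 3 carry a plastid or mitochondrial name, were all lower in ND under the trimmed mean scaling (median -0.64), and 5 were lower and 1 higher with library totals (median -0.32). Of all genes 35.5% were lower under the trimmed mean, and 23% were lower and 54.4% higher with library totals. The most abundant of the 7, groL1 (NO11G02260), and CPN20 (NO11G02250), the chloroplast co-chaperonin that caps the ring, have consecutive IDs and shared reads. groL1 had 952, 946 and 963 TPM in ND and 1367, 1404 and 1293 TPM in NR (-0.89 ± 0.04, adjusted p = 2.31e-13). CPN20 had 279, 282 and 301 TPM in ND and 398, 416 and 441 TPM in NR (-0.91 ± 0.05, adjusted p = 5.29e-12). They kept a like ratio, with 3.32 ± 0.11 TPM of groL1 per TPM of CPN20 in ND and 3.25 ± 0.28 in NR (SD, n = 3 each). A second groL1 (NO06G00840) had 80.1, 90.8 and 80.8 TPM in ND and 111, 101 and 103 TPM in NR (-0.69 ± 0.07, adjusted p = 5.17e-08). These genes were also lower with library totals (-0.57, -0.60 and -0.38) and on TPM. The mitochondrial chaperonin and its co-chaperonin did not keep their ratio. CPN60-1 (NO14G01730), picked after its values were seen, had 778, 715 and 769 TPM in ND and 831, 857 and 840 TPM in NR, and fell under all 3 views (-0.53 ± 0.05, adjusted p = 1.94e-09). CPN10 (NO05G01850) had 1108, 999 and 1036 TPM in ND and 875, 890 and 913 TPM in NR. Its change was -0.16 ± 0.05 under the trimmed mean scaling (adjusted p = 0.00853, and 0.0536 without ND culture 2) and 0.16 with library totals (adjusted p = 0.0088). The ratio of CPN60-1 to CPN10 was 0.703, 0.716 and 0.742 in ND and 0.950, 0.963 and 0.919 in NR, which did not overlap.

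J-domain proteins, the partners that bring substrates to HSP70, moved both ways, with 11 of 38 higher and 13 lower under the trimmed mean scaling and 23 higher and 6 lower with library totals. Over all genes 35.7% were higher and 35.5% lower under the former scaling, and 54.4% and 23% under the latter. The J-domain median was 0.02 and 0.34 under these scalings, close to that of all genes, and the first was -0.04 without ND culture 3 and 0.08 without NR culture 2. The 2 most abundant were lower under the trimmed mean and library totals, and the named rises were in scarcer genes. DJA6 (NO17G01940, shared reads), a J-domain protein of the DnaJ class A whose model also lists a mannosyltransferase, had 709, 702 and 703 TPM in ND and 889, 901 and 902 TPM in NR. It was lower under all 3 views (-0.79 ± 0.04, adjusted p = 1.49e-12). The dnaJ gene NO12G00410 had 697, 701 and 681 TPM in ND and 736, 803 and 710 TPM in NR (-0.53 ± 0.05, adjusted p = 3.63e-09), with adjusted p = 0.0901 in limma on TPM. Dnajb1 (NO02G05740, shared reads) had 33.04, 28.9 and 35.3 TPM in ND and 42.9, 45.9 and 38.6 TPM in NR. These did not overlap, and lack of overlap in normalised CPM was a condition for naming it. Its counts changed by -1.16 ± 0.08 (adjusted p = 9.35e-11), and its level on log2(TPM + 1) by -0.38. The deposited effective length of this 7-transcript model was 75.1% as long in ND as in NR, and its part in that gap was not tested.

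ERDJ2A (NO03G01230), a SEC63-type protein that helps move proteins into the ER, had 38.9, 51.9 and 44.8 TPM in ND and 75.7, 68.7 and 70.7 TPM in NR (-1.03 ± 0.10, adjusted p = 6.03e-09). It and the adjacent models of the same KEGG entry, NO03G01220 and NO03G01240, all shared reads, and NO03G01240 was higher in ND (0.32 ± 0.06). The annotation of NO03G01240 lists the telomerase-binding protein EST1A before ERDJ2A. Of these models NO03G01240 had the highest mean TPM, 110 in ND and 73.6 in NR. The sum of these models had 191.6, 210.5 and 206.6 TPM in ND and 177.1, 190.2 and 189.5 TPM in NR, a change of 0.01 ± 0.05 under the trimmed mean scaling (adjusted p = 0.923) and a rise of 0.32 with library totals (adjusted p = 4.18e-06). The fall of NO03G01230 did not hold for the summed models under either scaling. Rises were led by ATJ13 (NO06G00720), whose KEGG entry is DNAJC11, a mitochondrial membrane protein in mammals. It had 59.8, 61.6 and 65.1 TPM in ND and 26.2, 21.6 and 20.3 TPM in NR and was 2.11 times higher (1.08 ± 0.11, adjusted p = 2.38e-08). The dnaJ gene NO01G00350 (shared reads) had 44.7, 40.1 and 48.4 TPM in ND and 12.9, 12.7 and 16.4 TPM in NR (1.07 ± 0.13, adjusted p = 3.57e-07). Dnajb9 (NO06G02200), named after an ER protein of rat, had 32.4, 34.1 and 38.2 TPM in ND and 13.8, 12.8 and 15.03 TPM in NR (0.96 ± 0.16, adjusted p = 1.81e-05). In each of these 3 genes all ND libraries were above all NR libraries, and such a separation in normalised CPM was a condition for naming them. The dnaJ gene NO10G03740, below the 10 CPM needed for naming and given after its values were seen, had 52.7, 49.0 and 60.1 TPM in ND and 22.1, 25.0 and 14.8 TPM in NR (0.96 ± 0.24, adjusted p = 0.00142). Of the 38 genes 14 did not pass under the trimmed mean scaling.

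Of the heat shock factors, none was higher under the trimmed mean scaling and all 4 were lower, with changes of -0.64 to -0.12, whereas with library totals 1 was higher and 1 lower. The backgrounds over all genes were 35.7% higher and 35.5% lower, and 54.4% and 23% with library totals. HSF1 (NO12G00520), the most abundant factor, had 1130, 1153 and 1093 TPM in ND and 958, 1058 and 1072 TPM in NR (-0.23 ± 0.04, adjusted p = 0.00014, and 0.09 with library totals, adjusted p = 0.0648). The factor hsf1 (NO09G00420) had 198, 229 and 218 TPM in ND and 252, 277 and 238 TPM in NR and was lower under all 3 views (-0.64 ± 0.07, adjusted p = 3.15e-08). HSBP (NO02G04270), a binding protein that restrains heat shock factors in other eukaryotes, had 24.3, 23.1 and 23.2 TPM in ND and 32.3, 33.4 and 28.7 TPM in NR. It was chosen after its values were seen and lay below the 10 CPM needed for naming, at 3.16 normalised CPM in ND and 5.74 in NR on average. Its change was -0.86 ± 0.28 (adjusted p = 0.0108, and 0.0851 with library totals). The redox-regulated holdase hslO (NO06G02250) averaged 109 ± 7.61 TPM in ND and 108 ± 4.27 TPM in NR (SD, n = 3 each) and was lower only under the trimmed mean scaling among the 3 views (-0.36 ± 0.08, adjusted p = 0.000398). The T-complex protein 11 gene Tcp11l2 (shared reads) had 12.3, 17.2 and 18.6 TPM in ND and 43.2, 33.8 and 34.0 TPM in NR (-1.56 ± 0.13, adjusted p = 1.37e-09).

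Other genes of protein folding, 74 of which were listed from annotation words and 72 tested, were higher in 21 cases and lower in 37 under the trimmed mean scaling, and in 31 and 23 cases with library totals. The backgrounds for all these counts were 35.7% of all genes higher and 35.5% lower under the trimmed mean scaling, and 54.4% higher and 23% lower with library totals. Of the 72 tested, 29.2% were higher and 51.4% lower under the first and 43.1% and 31.9% under the second. Of 11 genes of ER folding 5 were higher and 2 lower, or 8 higher and 1 lower with library totals, and none of the counts in these small groups was tested. Calnexin (NO23G00490, ARB_00147), a lectin chaperone of the ER, averaged 770 ± 19.4 TPM in ND and 392 ± 36.6 TPM in NR (SD, n = 3 each), a change of 0.60 ± 0.06 (adjusted p = 9.48e-09). Prefoldin subunits, which hand clients to the cytosolic chaperonin, were higher for 3 of 5 and lower for 1, or higher for 3 with none lower with library totals. The prefoldin gene pfd-6 (NO12G00830) averaged 158 ± 12.8 TPM in ND and 84.6 ± 9.49 TPM in NR (SD, n = 3 each), with a change of 0.42 ± 0.14 (adjusted p = 0.00983, and 0.0704 with DESeq2). Of 39 tested peptidyl-prolyl isomerases, which turn proline bonds, 24 were lower and 7 higher, or 16 and 14 with library totals. A thylakoid lumen type, sll0408 (NO01G04860), averaged 127 ± 4.70 TPM in ND and 361 ± 1.49 TPM in NR (SD, n = 3 each; -1.88 ± 0.06, adjusted p = 6.41e-17). Co-chaperones and exchange factors were lower in 5 of 7 cases and higher in 1 (3 and 1 with library totals), with Cdc37 having the smallest p. Clp protease genes were higher in 4 of 8 cases and lower in 4 (4 and 2 with library totals), and clpP2 (NO20G01520, shared reads) changed by -0.49 ± 0.05 (adjusted p = 1.74e-08, and 0.0651 in limma on TPM). Of the pair of heat stress transcription factors named as such, HSFA4C (NO01G03910, shared reads) changed by -0.57 ± 0.11 (adjusted p = 0.000132, and 0.251 in limma on TPM) and the other was higher.

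The authors' deposited table lists 2057 genes with an absolute log2 change above 1, beside 10481 genes in the library tables. It held 10 of the 85 members, 5 higher and 5 lower in ND. With edgeR in the fit used here 5 members were at least 2 times higher and 5 at least 2 times lower, beside backgrounds of 9.39% and 12.5% of all genes. Among those 10 members, the authors' deposited table gave clpB1 the lowest log2 change, -1.67, and CCT2 the highest, 1.52.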

How the data were processed

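RNA-seq tables of 6 libraries (3 ND, 3 NR) were used. Per the labels' protocols, total RNA was isolated by Trizol and made into Illumina libraries. Per the submitters' processing notes, StringTie, STAR, edgeR, Picard, featureCounts and Trim Galore were used, with no role or version. The genome build and the counting tool were not given in the sources used here. The authors deposited expected counts per gene without normalisation, with 79.6% to 80.9% whole values (within 0.005), and TPM and FPKM values scaled for effective length, per the file headers. Gene length and effective length in bases were deposited as other values. The authors' deposited comparison gives a log2 fold change and p-values with FDR; its FPKM columns were not analysed. Replicate columns left unassigned numbered 0.

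Expected counts were rounded and tested by quasi-likelihood in edgeR 4.0.16 (R 4.3.3), with TMM (trimmed mean) factors, the filterByExpr filter, no block and Benjamini-Hochberg adjustment at 0.05; the SE is the absolute log2 fold change over the square root of F. The common biological coefficient of variation was 0.0475. Alternatives used limma 3.58.1 (TPM of at least 1 in 3 libraries, pseudocounts 1 and 0.1) and DESeq2 1.42.0. The script was tested on simulated data. Sample titles call the libraries replicates, taken here as separate cultures, and p-values measure the spread between these libraries. Libraries of a condition differed by 1.73 to 3.05 chi-square per degree of freedom, so none duplicates another.

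Members and lists were chosen with earlier results of these data known. The text names every member of families of up to 6 genes; in larger ones the 2 with the highest mean TPM and up to 3 rises and 3 falls with the largest fitted change (adjusted p under 0.05, at least 10 normalised CPM, libraries not overlapping in normalised CPM); and the smallest p in each group of other folding genes. Adjacent models of a family with shared reads were summed, an alternative chosen after seeing the data. Models are called adjacent by gene ID; no coordinates or sequences were used.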

Additional observations from a re-analysis of the deposited data

How the results depend on the processing

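Direction and calls of members depended mainly on the scaling, and counts of higher and lower members are given here in that order. With library totals alone they were 44 and 22 over all members (median 0.18), 0 and 2 for small HSP (-0.066), 1 and 4 for HSP100 (-0.40), 7 and 2 for HSP70 (0.43), 23 and 6 for J-domain genes (0.34), 1 and 1 for HSP90 (-0.19), 9 and 5 for chaperonins (0.18), 3 and 2 for the remainder (-0.0021) and 31 and 23 for other folding genes. With limma on log2(TPM + 1) they were 43 and 18 over all members (0.23), 0 and 2 for small HSP (0.0023), 1 and 3 for HSP100 (-0.36), 8 and 1 for HSP70 (0.56), 21 and 3 for J-domain genes (0.355), 1 and 1 for HSP90 (-0.14), 9 and 5 for chaperonins (0.23), 3 and 3 for the remainder (0.042) and 32 and 17 for other folding genes; with a pseudocount of 0.1 the counts were the same and the medians differed only for HSP70 (0.57) and J-domain genes (0.37). Upper-quartile factors gave medians of -0.029 over all members, -0.27 for small HSP, -0.61 for HSP100, 0.23 for HSP70 (3 lower), 0.13 for J-domain genes (17 higher), -0.40 for HSP90 (1 lower), -0.029 for chaperonins and -0.21 for the remainder. Of all genes 54.4% were higher and 23% lower with library totals, and 54.3% and 19.7% with limma on log2(TPM + 1).

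With whole counts only, 57 members were left and 28 of them were lower (median -0.12), beside 45 of 85 in the main fit. The lower counts were 2 of 2 for small HSP (-0.61), 7 of 24 for J-domain genes (0.11), 1 of 1 for HSP90 (-0.13) and 5 of 12 for chaperonins (-0.0055). HSP70 had 3 of 7 higher (-0.12), and the HSP100 median was -0.65 over 4 genes. Log2 ratios of summed TPM, which over all genes were 0.024 for all members, 0.044 for small HSP, -0.69 for HSP100, 0.24 for HSP70, 0.080 for J-domain genes, 0.12 for HSP90 and -0.039 for chaperonins, became 0.062, -0.26, -0.94, 0.22, 0.24, 0.23 and 0.21 with whole counts only. Without the most abundant gene of each set, a choice made after seeing the data, they were 0.0074, 0.0030, -0.94, -0.30, 0.19, -0.52 and 0.12 in the same order. Small shifts of the median came with RLE factors (-0.15 over all members, 0.0085 for J-domain genes), with DESeq2 (0.0089 for J-domain genes) and with at least 10 CPM in 3 libraries (0.013 for J-domain genes, -0.27 for the remainder). The cause was not tested.

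Leaving out each library gave 18 to 20 members higher and 40 to 46 lower, with medians of -0.16 to -0.13 over all members, -0.42 to -0.30 for small HSP, -0.76 to -0.70 for HSP100, -0.060 to 0.22 for HSP70 (3 to 5 lower) and -0.035 to 0.077 for J-domain genes. An adjusted p of 0.01 left 17 higher and 37 lower. Restriction to the 76 members with chaperone names only, an alternative added after seeing the data, left 19 and 37.

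Of 44 named genes, signs reversed with library totals for P23-1 (0.16), HSP81-1 (0.19), CPN10 (0.16), HSF1 (0.089), clpB NO12G03450 (0.20), HSP23.2 NO20G02130 (0.064) and HSP23.2 NO20G02140 (0.018). On log2(TPM + 1) they reversed for P23-1 (0.23), HSP81-1 (0.23), CPN10 (0.23), hslO (0.015), HSF1 (0.13), clpB NO12G03450 (0.25), NO20G02130 (0.13), NO20G02140 (0.14) and hsp16 (0.0023), and with a pseudocount of 0.1 alike. ERDJ2A NO03G01230 reversed when adjacent models were summed (0.0057).

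The replicate block gave 19 members higher and 44 lower and changed no call of a named gene. Deviations of same-numbered libraries were correlated at r = 0.02 to 0.06 over 8119 genes, and each library correlated best with its own number, a hint from the data and not the design. The lowest count of any member in a library was 13, in the dnaJ gene NO10G03740, which limits the precision of that gene.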
